A study of Mus musculus with 2 samples.

Results

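The genes described here take iron into cells, store it, release it from ferritin, export it or free it from haem. They were taken as the 10 named genes whose Ensembl identifiers carry the symbols Fth1, Ftl1, Tfrc, Slc40a1, Slc11a1, Slc11a2, Hmox1, Ncoa4, Steap3 and Ireb2, out of 49585 identifiers in the deposited count table. Each symbol matched 1 identifier, and all 10 genes had at least 1000 reads over both libraries.

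Messenger RNA was sequenced from CD11b+ cells, which are mainly macrophages, monocytes and granulocytes, pulled with magnetic beads from digested subcutaneous tumours of mouse pancreatic cancer cell lines. The Nrp2 KO library came from NRP2f/fCSF1R-iCRE mice that were given tamoxifen each day once tumours could be felt, which activates the recombinase and deletes Nrp2 (neuropilin 2) where the Csf1r promoter is active, in monocytes and macrophages. The control library came from mice of the same line, strain label (BL6 background) and tumour setting, for which the labels name no tamoxifen. The drug and the deletion thus differ together and cannot be told apart. Both groups carry the floxed gene and the recombinase, tumours were taken at 15 days, and each library holds the combined RNA of 3 animals. The sources used here give neither the animals' ages nor the names of the tumour lines.

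Macrophages take up transferrin-bound iron and clear dying cells and red cells. Haem from those cells is opened by haem oxygenase, and the freed iron is either stored in ferritin or sent out through ferroportin. Iron-regulatory proteins, which bind a hairpin called the iron-responsive element when iron is scarce, block translation of messages that carry it in the 5′ untranslated region and protect messages that carry it in the 3′ untranslated region from decay. The RNA level of a gene with the 5′ element is therefore not a measure of its protein.

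The element itself is shown first, as a sequence feature of some members. It was known from iron genes before the search, so finding it among them is not a result. In the reference transcripts of GENCODE M21 (GRCm38), a core made of a C, 5 bases, the loop CAGTGN and 5 bases that pair with the first 5 (G-T pairs allowed) was found in 4 of the 10 genes, at 7 places. It was searched on the sense strand alone, since it is an RNA element, and no other motif was searched. Of 21901 protein-coding genes, 294, or 1.34%, held it in at least 1 transcript. That share counts matches in any region, coding regions included, whereas all 7 places in the members are in untranslated regions. A match is a run of letters and not evidence of binding, and its absence from a transcript says only that these letters are not there. Capitals mark the unpaired C and the loop, in sequences of 29 bases read 5′ to 3′:
Fth1, 5′ untranslated region, chr19:9982732-9982760, plus strand: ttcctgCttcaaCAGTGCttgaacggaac
Ftl1, 5′ untranslated region, chr7:45459779-45459807, minus strand: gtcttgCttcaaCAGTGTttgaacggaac
Slc40a1, 5′ untranslated region, chr1:45925465-45925493, minus strand: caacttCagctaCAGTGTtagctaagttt
Tfrc, 3′ untranslated region, chr16:32631219-32631247, plus strand: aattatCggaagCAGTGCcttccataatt
Tfrc, 3′ untranslated region, chr16:32631598-32631626, plus strand: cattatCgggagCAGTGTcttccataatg
Tfrc, 3′ untranslated region, chr16:32631663-32631691, plus strand: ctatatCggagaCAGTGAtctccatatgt
Tfrc, 3′ untranslated region, chr16:32631710-32631738, plus strand: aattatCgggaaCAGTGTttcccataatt

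The ferritin heavy and light chain elements were identical at 26 of 29 bases, whereas that of Slc40a1 shared 13 of 29 with each of them. The 4 elements of Tfrc shared between 18 and 25 of 29 bases with each other. The map of the transcripts shows the 3 elements before the coding region and the 4 after it.

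**Figure D1:**
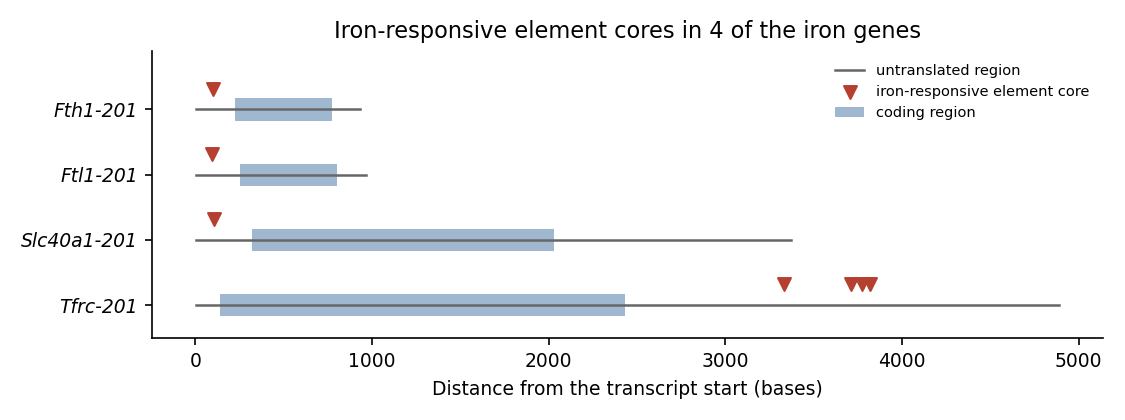
Positions of iron-responsive element cores (red triangles) along the principal transcripts of 4 iron genes, in bases from the transcript start; boxes are coding regions and lines untranslated regions. Fth1, Ftl1 and Slc40a1 have 1 core each before the coding region, and Tfrc has 4 after it.

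The libraries held 68554172 counted reads (Nrp2 KO) and 64153676 (control), over 17566 and 16257 detected genes, and mitochondrial genes took 1.76% and 1.85% of the reads. The targeted gene Nrp2 was at 15.2 CPM (read counts divided by the TMM-scaled library size) in the Nrp2 KO library and 148 CPM in the control library, a ratio of 0.103 (95% interval 0.0721 to 0.144). Because each group is a single pool, there are no replicates, no p-value was computed, and no difference below could be set against differences between animals. Genes with more than 4 reads in 1 library and 0 in the other were used to size a captured fragment. Their median was 24 reads in the Nrp2 KO library and 47 in the control library, and a fragment was taken as worth that many. Each 95% interval is the exact Clopper-Pearson interval of the ratio (Nrp2 KO over control) on counts divided by these values, and covers counting error only. Of the macrophage markers, which define the main labelled cell type, 10 of 10 were measured, with summed levels of 15635 CPM in the Nrp2 KO library and 14983 CPM in the control library.

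Most of the 10 genes stood close to their control level, and Slc40a1, which encodes the iron exporter ferroportin, was the exception at 0.496 of it. Upwards, 0 of 10 members passed 2-fold in the Nrp2 KO library, and downwards 1 did, Slc40a1. Over all 14420 genes with at least 50 reads, 10.8% passed 2-fold upwards and 14.7% downwards. Over the 9054 genes with at least 1000 reads, a depth that every member reached, the shares were 4.5% and 4.02%. The interval lay wholly above a ratio of 1 for 3 members (Fth1, Ftl1, Slc11a1), below it for 1 (Slc40a1), and included 1 for 6. The same shares over genes with at least 50 reads were 12.6% above and 11.1% below, and over genes with at least 1000 reads 18.7% and 15.2%. With 10 members, counts this small are not read as a result about the list. The median log2 ratio of the members was 0.17, beside 0.04 for genes with at least 1000 reads.

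**Figure D2:**
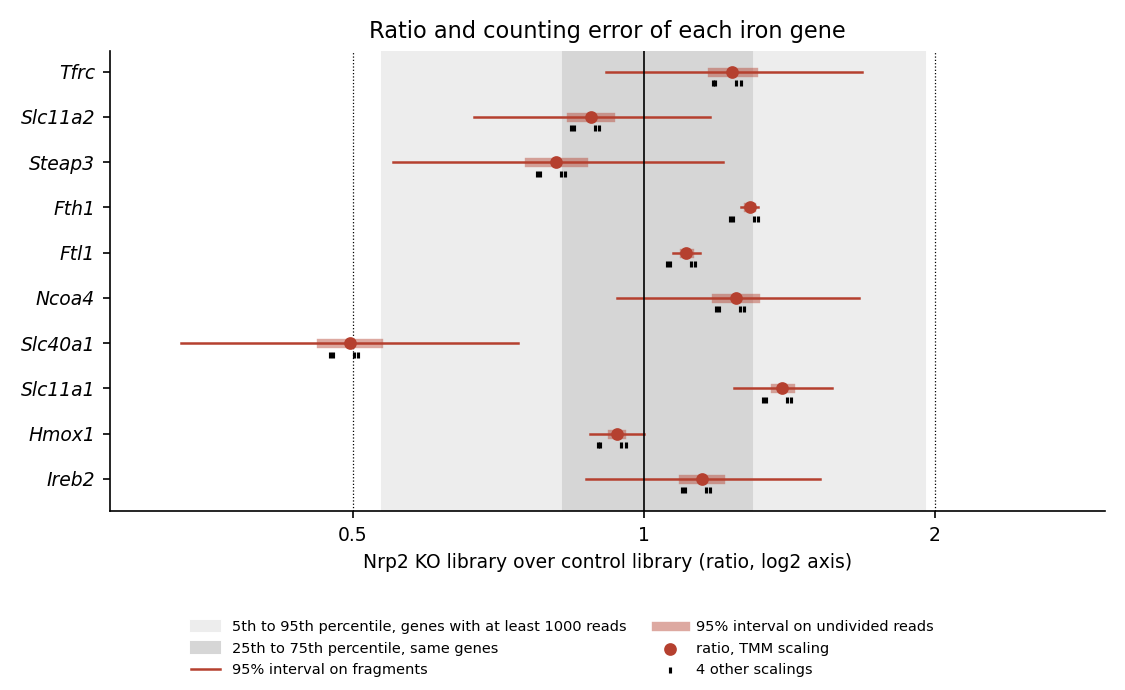
Ratio of each iron gene, Nrp2 KO library over control library (log2 axis), with 95% intervals on fragments (thin) and on undivided reads (thick), black ticks for 4 other scalings, and grey bands for the spread of all genes with at least 1000 reads. Slc40a1 lies at 0.496 and the other 9 genes between 0.812 and 1.39.

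Levels compared between genes are given as TPM, computed from the deposited counts and the length of the principal transcript. Fth1 was at 22462 TPM in the Nrp2 KO library and 17488 TPM in the control library, the 2nd and 4th highest of all genes. Ftl1 was at 8309 TPM in the Nrp2 KO library, rank 9, and 7521 TPM in the control library, rank 12. Next came Hmox1 with 1127 TPM (Nrp2 KO) and 1204 TPM (control), and Slc11a1 with 306 and 221 TPM. The other 6 genes lay between 10.1 and 35.0 TPM in both libraries. Ncoa4 led in the Nrp2 KO library at 33.6 TPM, where Slc11a2 was at 30.8 TPM; in the control library Slc11a2 led at 35.0 TPM, where Ncoa4 was at 27.1 TPM. Slc40a1 was the lowest of the 10 in the Nrp2 KO library at 10.1 TPM, whereas in the control library it stood at 20.4 TPM, above Steap3, Ireb2 and Tfrc at 19.6, 17.2 and 16.6 TPM. This order in the control library rests on the principal transcript length. The union of all annotated exons is 9000 bases for Slc40a1, 5715 for Steap3, 9479 for Ireb2 and 6185 for Tfrc. With those lengths Slc40a1 would stand below Steap3, Ireb2 and Tfrc in the control library too. The control interval of Tfrc over Slc40a1, given with the exporter, includes 1, and the other gaps were not tested.

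**Figure D3:**
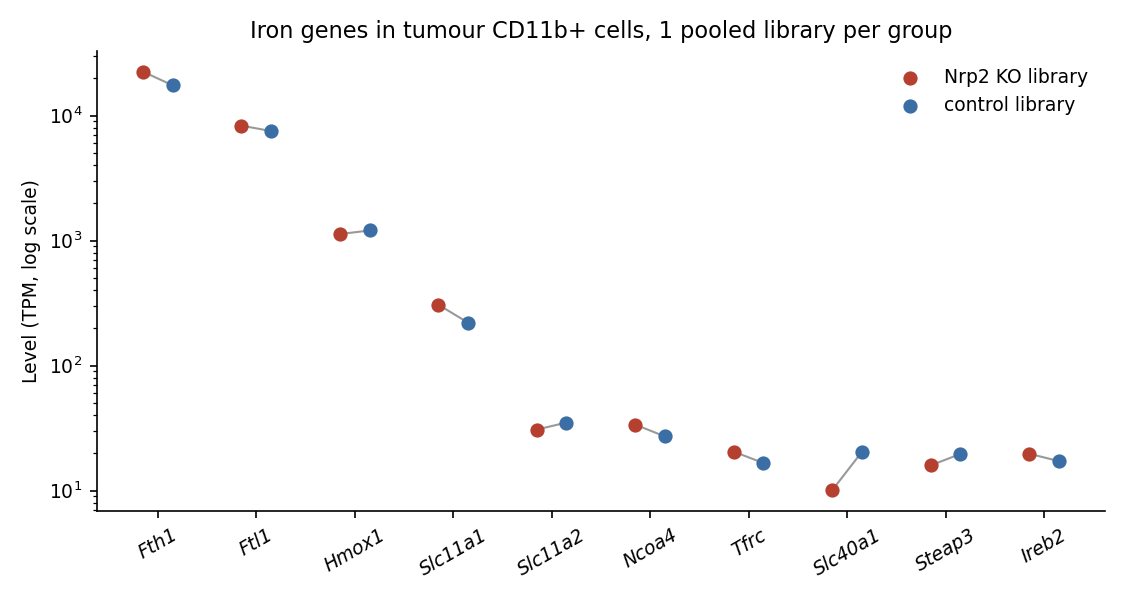
Level of each iron gene in TPM (log scale), Nrp2 KO library left (red) and control library right (blue), 1 pooled library each, joined by a line; there are no error bars because there are no replicates. Ferritin chains are the highest, and Slc40a1 has the widest gap, at 10.1 TPM (Nrp2 KO) and 20.4 TPM (control).

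The transferrin route of uptake is represented by Tfrc, Slc11a2 and Steap3. Tfrc, the transferrin receptor (ENSMUSG00000022797, GRCm38 chromosome 16, 32608920 to 32632794, plus strand), had 3695 reads, or 55.2 CPM, in the Nrp2 KO library and 2934 reads, or 44.7 CPM, in the control library. Its ratio was 1.23 (0.914 to 1.68), an interval that includes 1. Receptor synthesis is known to rise in dividing cells. Of 10 cell cycle genes, 7 were at least 2-fold lower in the Nrp2 KO library. The share over all genes was 14.7% at 50 reads or more and 4.02% at 1000 or more. Mcm2, Pcna and Mki67 had ratios of 0.587, 0.978 and 1.39, the last with an interval that includes 1 (0.998 to 1.95). Cell cycle genes summed to 258 CPM (Nrp2 KO) and 370 CPM (control), and their part in the Tfrc value was not tested. Slc11a2 (ENSMUSG00000023030, chromosome 15, 100387898 to 100425072, minus strand) encodes DMT1, which moves ferrous iron out of the endosome. It was at 51.4 CPM (Nrp2 KO) and 58.3 CPM (control), a ratio of 0.881 (0.667 to 1.17). Steap3 (ENSMUSG00000026389, chromosome 1, 120190757 to 120272705, minus strand) encodes the endosomal reductase that turns ferric into ferrous iron. It was at 25.7 CPM (Nrp2 KO) and 31.7 CPM (control), a ratio of 0.812 (0.551 to 1.21). None of these 3 uptake genes differed beyond counting error.

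Among other uptake genes, the haem cargo receptors Lrp1 and Cd163 were higher and Hfe was lower. Lrp1, a large endocytic receptor that takes in haemopexin-bound haem among many ligands, was at 1595 CPM in the Nrp2 KO library and 599 CPM in the control library, a ratio of 2.66 (2.47 to 2.87). Cd163, the scavenger receptor for haemoglobin bound to haptoglobin, was at 219 and 114 CPM (control), a ratio of 1.93 (1.61 to 2.31). Both intervals exclude 1, and that of Cd163 includes 2. Hfe, an MHC class I-like protein that binds the transferrin receptor, was lower, at 123 CPM (Nrp2 KO) and 198 CPM (control), a ratio of 0.62 (0.528 to 0.729). Slc39a14, a transporter of iron not bound to transferrin, had a ratio of 0.752 (0.55 to 1.03). Cybrd1, a ferric reductase best known from the gut, had 0 reads in both libraries. At these depths a count of 0 leaves room for 3 fragments, which is 72 reads in the Nrp2 KO library and 141 reads in the control library. Over the uptake list 12 of 14 genes had at least 50 reads, of which 2 passed 2-fold upwards and 1 downwards, beside 10.8% and 14.7% of all genes. Besides Lrp1 these were Steap2 (68 and 23 reads) and Tfr2 (16 and 44 reads in the control library), which are too shallow for a fold.

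The RNAs of both ferritin chains were slightly higher in the Nrp2 KO library. Fth1, the heavy chain that oxidises iron for storage (ENSMUSG00000024661, chromosome 19, 9980598 to 9985098, plus strand), had 771454 reads, or 11517 CPM, in the Nrp2 KO library and 587592 reads, or 8950 CPM, in the control library. Its ratio was 1.29 (1.26 to 1.31), with 1.13% of all reads in the Nrp2 KO library and 0.916% in the control library. Ftl1, the light chain that helps to lay down the iron core (ENSMUSG00000050708, chromosome 7, 45457944 to 45459884, minus strand), had 297358 reads, or 4439 CPM, and 263329 reads, or 4011 CPM (control). Its ratio was 1.11 (1.07 to 1.14). The exons of Ftl1 share 355 bases with Gm10252 on the opposite strand, which had 2 reads in the Nrp2 KO library and 1 in the control library. Both intervals exclude 1 because these genes are deeply read, although neither is far from other genes: of genes with at least 1000 reads, 74.3% had a lower ratio than Fth1 and 58.6% a lower ratio than Ftl1.

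Within a library, the ratio of the chains does not depend on scaling between libraries. Per kilobase of principal transcript there were 2.70 Fth1 reads for each Ftl1 read in the Nrp2 KO library (2.65 to 2.76) and 2.33 in the control library (2.25 to 2.40), so the ratio of heavy to light chain reads was 1.16-fold higher in the Nrp2 KO library. With the union of all annotated exons as the length the values were 1.002 (Nrp2 KO) and 0.862 (control), so the ratio in either library depends on the transcript length chosen while the 1.16-fold difference does not. The ferritin genes have processed copies among which reads can be split. The 2 annotated heavy chain copies held 63 reads (Nrp2 KO) and 69 reads (control), and the 3 light chain copies held 707 and 656 reads, or 0.238% and 0.249% of those of Ftl1. Pcbp1, a chaperone that brings iron to ferritin, was lower, at 149 CPM (Nrp2 KO) and 207 CPM (control), a ratio of 0.719 (0.617 to 0.838).

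Ncoa4 (ENSMUSG00000056234, chromosome 14, 32159865 to 32179855, plus strand) is the receptor that takes ferritin to the lysosome for iron release. It had 4157 reads, or 62.1 CPM, in the Nrp2 KO library and 3272 reads, or 49.8 CPM, in the control library. The ratio of 1.25 (0.938 to 1.67) includes 1. There were 668 Fth1 transcripts per Ncoa4 transcript in the Nrp2 KO library (575 to 780) and 646 in the control library (511 to 830), by length-scaled counts. The proportion of receptor to cargo differed by less than its counting error. On the same list of ferritin turnover genes, Atg7, needed to form autophagosomes, had a ratio of 1.5 (1.13 to 2.03), and Gabarapl2, a protein of the autophagosome membrane, one of 0.584 (0.412 to 0.83).

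The RNA of the exporter was lower, while the interval of Cp included 1 and Hamp, Heph and Hephl1 were at 0 or too shallow. Slc40a1, ferroportin (ENSMUSG00000025993, chromosome 1, 45908068 to 45926523, minus strand), is the iron exporter of mammalian cells. It had 1259 reads, or 18.8 CPM, in the Nrp2 KO library and 2487 reads, or 37.9 CPM, in the control library. Its ratio was 0.496 (0.332 to 0.741), a log2 ratio of -1.01, and the read counts amount to about 52.5 and 52.9 fragments (control). Of genes with at least 1000 reads, 3.91% had a lower ratio. The interval excludes 1 but not 2-fold, and the point value sits on the 2-fold line: with DESeq2 size factors or with scaling on macrophage markers, Slc40a1 was no longer past it, at ratios up to 0.507. In the authors' deposited table its log2 fold change was -0.997, with a p-value of 0.135 and an adjusted p-value of 0.9999, both computed by the authors on 1 library per group.

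Ratios of members within a library restate the same counts without scaling between libraries, and the pairs were chosen with the values known, so they describe the members and add no support. There were 2223 Fth1 transcripts per Slc40a1 transcript in the Nrp2 KO library (1697 to 2973) and 857 in the control library (655 to 1145). For the entry receptor and the exporter there were 2.02 Tfrc transcripts per Slc40a1 transcript in the Nrp2 KO library (1.47 to 2.82) and 0.813 in the control library (0.555 to 1.2). The control interval includes 1, so the order of Tfrc and Slc40a1 is not resolved in that library. Values within a library also depend on the transcript length chosen, here that of the principal transcript, whereas their fold difference between libraries does not. Relative to Csf1r, the growth factor receptor of macrophages, Slc40a1 was at 0.0117 (0.00875 to 0.0154) in the Nrp2 KO library and 0.0197 (0.0147 to 0.0259) in the control library, and these intervals overlap slightly. Csf1r was itself lower in the Nrp2 KO library, with a ratio of 0.835 (0.799 to 0.874), so it is not a fixed reference. Taken relative to Csf1r, the ratio of Slc40a1 between libraries was 0.594.

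Markers of macrophages that handle red cells did not move in one direction beside Slc40a1. Vcam1 and Cd163 had ratios of 1.82 and 1.93, and Spic, the transcription factor of splenic red pulp macrophages, had 363 and 343 reads (control). Timd4, a phosphatidylserine receptor of resident macrophages, and Treml4 had ratios of 0.365 (0.199 to 0.657) and 0.109 (0.0403 to 0.25). All 5 of these markers together summed to 755 CPM in the Nrp2 KO library and 449 CPM in the control library. Vcam1 alone held 521 CPM (Nrp2 KO) and 286 CPM (control) of that. Monocyte markers summed to 1074 CPM (Nrp2 KO) and 1628 CPM (control), of which Nr4a1 held 590 and 571 CPM. Ly6c2 and Vcan had ratios of 2.75 and 2.21, and Ccr2, Plac8 and Cx3cr1 had ratios of 0.376, 0.317 and 0.117. Past 2-fold were thus 2 of 6 upwards and 3 downwards, beside 10.8% and 14.7% of genes with at least 50 reads. At 1000 reads or more the shares were 4.5% and 4.02%. Genes of other cells also differed: T cell markers summed to 65.2 CPM (Nrp2 KO) and 200 CPM (control), B cell markers to 21.4 and 201.2 CPM, and dendritic cell markers to 90.8 and 227 CPM. Tumour epithelial markers summed to 121 CPM (Nrp2 KO) and 188 CPM (control), fibroblast markers to 193 and 321 CPM, and adipocyte markers to 195 and 109 CPM. Of the 6 adipocyte markers, Lpl carries most of the sum at 101 CPM (Nrp2 KO) and 97.5 CPM (control). The other 5 passed 2-fold upwards, beside 10.8% of all genes. Cfd had a ratio of 11.7 (5.03 to 34.9), Fabp4 had one of 4.59 (2.47 to 9.44), and Adipoq had 454 reads (Nrp2 KO) and 0 reads (control). Plin1 (170 and 0 reads) and Retn (192 and 0 reads) had intervals that include 1. The part of these cell types in the Slc40a1 value was not tested, and in bulk RNA fewer cells of a type and less RNA per cell cannot be told apart. Of the other exporter genes, Cp, the plasma ferroxidase ceruloplasmin, had a ratio of 0.885 (0.705 to 1.11). Hamp, the gene of the hormone hepcidin that removes ferroportin from the membrane, had 0 reads in both libraries, Heph had 8 and 0 reads, and Hephl1 had 0 and 66 (control).

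**Figure D4:**
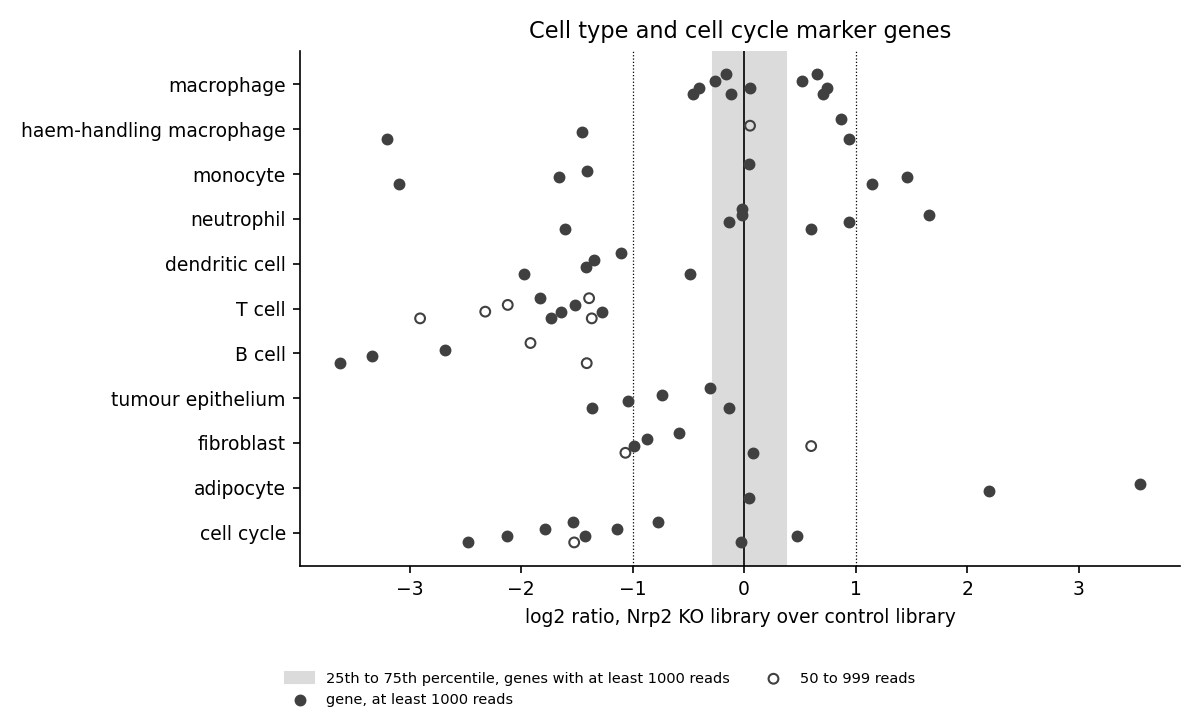
Log2 ratio, Nrp2 KO library over control library, of each marker gene with at least 50 reads over both libraries (filled, at least 1000 reads; open, fewer); the grey band is the middle 50% of genes with at least 1000 reads and dotted lines mark 2-fold. T cell, B cell and dendritic cell genes lie mostly left of the band, macrophage genes on both sides; 10 genes with under 1 fragment in a library are not drawn.

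Slc11a1 had the highest ratio of the 10 genes. It encodes NRAMP1, which moves iron and other divalent metals across the phagosome membrane of macrophages and neutrophils (ENSMUSG00000026177, chromosome 1, 74375195 to 74386062, plus strand). It had 26216 reads, or 391 CPM, in the Nrp2 KO library and 18464 reads, or 281 CPM, in the control library, a ratio of 1.39 (1.24 to 1.57). BL6 mice are known to carry a loss-of-function allele of Slc11a1, so its RNA is not a measure of transport. Of 10 neutrophil markers, 9 had at least 50 reads, of which 3 passed 2-fold upwards and 1 downwards, beside 10.8% and 14.7% of all genes. The summed level of the 10 was 1175 CPM (Nrp2 KO) and 1104 CPM (control). The sum joins genes that lay far apart. S100a8 and S100a9 had ratios of 1.92 and 1.51, the granule gene Ngp had 1033 reads (Nrp2 KO) and 2 reads (control), Ly6g had 96 and 0, and Camp had 18 and 0. Ngp and Ly6g, both counted upwards, had fewer control reads than 1 fragment is worth, which is too shallow for a fold. The interval of Ngp lay above 1, and that of Ly6g included it. Csf3r, Cxcr2 and Mmp8 had ratios of 0.985, 0.985 and 0.911, and Mmp9 had one of 0.328 (0.286 to 0.376). Their part in the Slc11a1 value was not tested. Within the SLC11 family, a pair chosen with its values known, there were 9.96 Slc11a1 transcripts per Slc11a2 transcript in the Nrp2 KO library (8.36 to 11.9) and 6.3 in the control library (4.95 to 8.11).

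Haem breakdown genes did not pass 2-fold. Hmox1, the inducible haem oxygenase (ENSMUSG00000005413, chromosome 8, 75093621 to 75100589, plus strand), had 65399 reads, or 976 CPM, in the Nrp2 KO library and 68331 reads, or 1041 CPM, in the control library. Its ratio was 0.938, with an interval of 0.88 to 1.0004 that only just includes 1; under scaling by library size alone or by upper quartile factors, 2 members rather than 1 had an interval below 1, and Hmox1 was the second. Its constitutive paralogue Hmox2 had a ratio of 1.04 (0.866 to 1.24). Biliverdin, the product, is reduced by Blvra and Blvrb, whose ratios were 1.02 (0.814 to 1.29) and 0.852 (0.711 to 1.02). Slc48a1, which carries haem out of the phagolysosome, was higher, at 195 CPM (Nrp2 KO) and 153 CPM (control), a ratio of 1.28 (1.09 to 1.5). Bach1, the haem-sensing repressor of Hmox1, stood at 0.975 (0.82 to 1.16). Of the 8 genes of the haem list with at least 50 reads, 0 were at least 2-fold different. Red cell RNA was low in both libraries: the 10 erythroid markers summed to 3.88 CPM (Nrp2 KO) and 8.53 CPM (control), and the defining genes Alas2, Slc4a1 and Epb42 were at 0 in both.

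Among the iron sensors, Ireb2 did not differ beyond counting error. It encodes iron-regulatory protein 2 (ENSMUSG00000032293, chromosome 9, 54863789 to 54912530, plus strand), which binds the elements printed above. It had 4198 reads, or 62.7 CPM, in the Nrp2 KO library and 3585 reads, or 54.6 CPM, in the control library, a ratio of 1.15 (0.872 to 1.52). Aco1, iron-regulatory protein 1 and cytosolic aconitase, had a ratio of 0.848 (0.666 to 1.08). Fbxl5, which marks iron-regulatory proteins for degradation when iron is present, was higher, at 361 CPM (Nrp2 KO) and 183 CPM (control), a ratio of 1.98 (1.72 to 2.28). Set beside the element positions, the genes with the 5′ element had ratios of 1.29 (Fth1), 1.11 (Ftl1) and 0.496 (Slc40a1), and Tfrc with the 3′ elements one of 1.23. Genes sharing the 5′ element thus did not share a direction at the RNA level.

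Single genes of mitochondrial iron use and haem synthesis differed in each direction. Slc25a37, mitoferrin 1, which imports iron into mitochondria, had a ratio of 1.62 (1.26 to 2.1), and Fech, which inserts iron into protoporphyrin to make haem, one of 1.79 (1.28 to 2.55). Earlier enzymes of haem synthesis were lower or not resolved: Cpox, coproporphyrinogen oxidase, had 446 and 971 reads (control), a ratio of 0.45 (0.227 to 0.886), and Alad, which joins aminolevulinic acid, one of 0.626 (0.337 to 1.18). Of 14 genes in this list, 0 passed 2-fold upwards and 1 downwards, beside 10.8% and 14.7% of all genes, and nothing is read from that count. RNAs for proteins that withhold iron from bacteria were higher. Lcn2, which binds bacterial siderophores, had 2467 reads (Nrp2 KO) and 256 reads (control), a ratio of 9.43 (4.05 to 28.01). Ltf, lactoferrin, had 1078 reads (Nrp2 KO) and 334 reads (control), a ratio of 3.16 (1.42 to 8.25). Both are granule genes of neutrophils, and Ltf is itself 1 of the 3 neutrophil markers counted upwards. Of the other markers, given with Slc11a1, Ngp, S100a8 and S100a9 were also higher, and Mmp9 was lower. The intervals of Csf3r, Cxcr2 and Mmp8 included 1, as did that of Ly6g with its 96 and 0 reads (control). Lcn2 is also made by inflamed macrophages and epithelium; the part of these cells in both values was not tested.

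**Figure D5:**
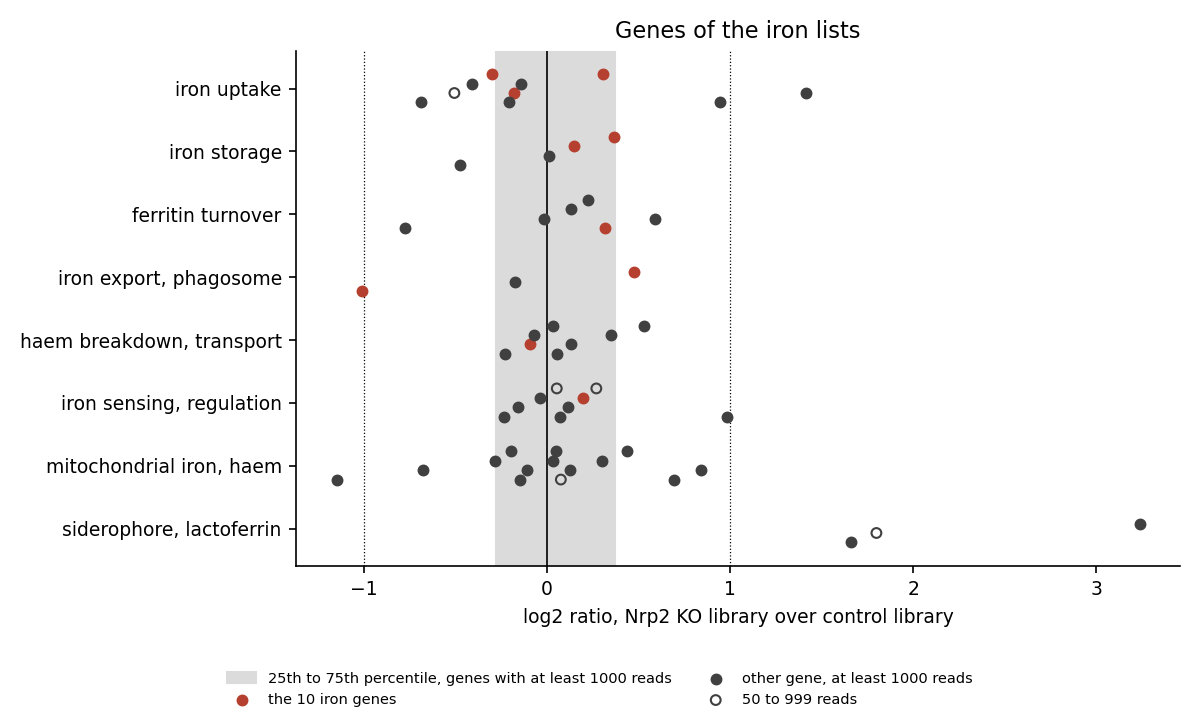
Log2 ratio, Nrp2 KO library over control library, of genes in 8 iron lists with at least 50 reads over both libraries (red, the 10 iron genes; filled, at least 1000 reads; open, fewer); the grey band is the middle 50% of genes with at least 1000 reads and dotted lines mark 2-fold. Slc40a1 lies on the left dotted line at -1.01 and Lcn2 farthest right at 3.24; 3 genes with under 1 fragment in a library are not drawn.

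Over all 8 iron lists, 60 of 67 genes had at least 50 reads, of which 5 passed 2-fold upwards (Lrp1, Steap2, Lcn2, Slc22a17, Ltf) and 4 downwards (Slc40a1, Tfr2, Hephl1, Cpox), beside backgrounds of 10.8% and 14.7%. Steap2, Tfr2 and Hephl1 had fewer reads than 1 fragment is worth in at least 1 library, and Slc22a17 had 264 and 74 reads (control), with an interval that includes 1 (0.671 to 48.9). By list, 0 of 4 storage, 0 of 6 turnover and 0 of 9 sensing genes with at least 50 reads passed 2-fold either way, while 2 of 4 in the export and phagosome list passed it downwards and 3 of 3 in the siderophore and lactoferrin list upwards. The interval excluded 1 upwards for 14 of the 60 and downwards for 5, beside 12.6% and 11.1% of all genes with at least 50 reads. All 10 members and 42 of the 57 other listed genes had at least 1000 reads. At that depth the shares over all genes were 18.7% and 15.2%. There, 3 listed genes passed 2-fold upwards and 2 downwards, beside 4.5% and 4.02% of all genes. Nothing is read from these counts. Of the 60 genes, the 59 with reads in both libraries had a median log2 ratio of 0.05. Genes with at least 50 reads had a median of -0.01.

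The authors' deposited table placed none of the 10 genes past an adjusted p-value of 0.05. In the authors' deposited table the lowest p-value among them was the 0.135 of Slc40a1, and 0 of 18864 genes with a p-value had an adjusted p-value below 0.05, while 794 had an unadjusted p-value below 0.05. The log2 fold changes in the authors' deposited table were 0.38 for Fth1, 0.16 for Ftl1, 0.49 for Slc11a1 and -0.08 for Hmox1.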

How the data were processed

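Per the labels' protocols, libraries were made with an Illumina TruSeq stranded mRNA kit. The submitters' processing notes name cutadapt, HISAT2, featureCounts and GRCm38; the sources used here give no versions, options or strand setting. The authors deposited raw counts of read 1 per Ensembl gene. Their deposited comparison table, whose column names are those DESeq2 writes, holds a normalised signal (counts divided by 1.005 for the Nrp2 KO and 0.995 for the control library, as the values show), log2 fold changes with standard errors, their quotient as a score, and p-values.

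Counts were scaled with TMM factors (edgeR 4.0.16, R 4.3.3; 0.977 for the Nrp2 KO and 1.02 for the control library). Log2 ratios used a prior of 0.5 counts, and genes needed at least 50 reads over both libraries. TPM used the APPRIS principal transcript of GENCODE M21. Symbols matched 49326 of 49585 identifiers. The calculation of the intervals (SciPy 1.17.1) was run on simulated libraries with known folds. Each simulated fragment carried the same number of reads that the intervals assume, so these libraries could not test that assumption. Reads carry no molecular identifiers, so intervals and the floor of 3 fragments cover counting error only. No test across genes was run, since 1 library per group leaves no degrees of freedom. DESeq2 1.42.0 gave alternative size factors. Exons of Ftl1 and Slc11a2 overlap other genes, the most read of which had 2 reads.

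The members, the 8 iron lists, the marker lists and the settings were chosen with earlier results of these data known. Besides the members, text names the list genes with at least 1000 reads and at least 1.5-fold difference, and 11 partners. Steap2, Tfr2, Hephl1, Slc22a17, Heph, Hamp, Cp and the single marker and cell cycle genes were named after their values were seen.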

Additional observations from a re-analysis of the deposited data

How the results depend on the processing

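No paired analysis was possible because each group has 1 pooled library, and leaving out a library leaves no comparison. All 10 member ratios kept their direction under DESeq2 size factors, library size alone, upper quartile factors, scaling on macrophage markers, a prior of 5 counts and the authors' log2 fold changes; 56 of these 60 values lay inside the fragment interval, and the other 4 were Fth1 and Ftl1 under library size alone (log2 0.30 and 0.08) and upper quartile factors (0.31 and 0.09). The scalings moved the median gene by between -0.07 and 0.03 on the log2 scale. Members at least 2-fold lower were 1, but 0 with DESeq2 size factors and 0 with macrophage marker scaling, because Slc40a1 crosses the line (log2 ratio -1.08 to -0.98 over the alternatives). Members with an interval below 1 were 1, but 2 with library size alone and with upper quartile factors. On undivided reads the interval was above 1 for 6 members and below 1 for 4, so fragment scaling decides 6 of the 10. Iron list genes at least 2-fold different were 5 higher and 4 lower; at a 1.5-fold limit, added after the data were seen, they were 10 and 7, and among genes with at least 1000 reads, also added then, 3 and 2. With union exon length, added then too, the ferritin chain ratio was 1.002 (Nrp2 KO) and 0.862 (control). The fragment intervals of Tfrc, Slc11a2, Steap3, Ncoa4, Ireb2 and Hmox1 include 1, so differences inside them were not detectable at this depth.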
